A study of Homo sapiens with 12 samples.

Results

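The 10 genes described here encode receptors and a ligand, LIF, of the interleukin-6 (IL-6) family of cytokines and the kinases, transcription factor and inhibitor through which these receptors signal. They are IL6ST, IL27RA, IL6R, LIFR, OSMR, LIF, JAK1, JAK2, STAT3 and SOCS3, and they were taken by name from the 62696 genes counted in 2 HER2 breast cancer cell lines. All 10 were found in both count tables by their Ensembl identifiers. The genes were selected on measured values, with the log2 fold changes of these libraries with TWEAK known. Their values in TWEAK-treated against untreated cells, and the difference of that response between the lines, are therefore given as a description, without p-values.

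Cytokines of the IL-6 family bind a ligand-specific receptor that pairs with gp130, the shared signal-transducing chain encoded by IL6ST. Receptor-bound Janus kinases (JAKs) then phosphorylate STAT3, which enters the nucleus and switches on target genes, among them SOCS3, an inhibitor that binds gp130 and JAKs and damps the signal. In breast epithelium the pathway is known for its part in involution of the gland, and in breast tumours for its links to inflammation, survival and invasion.

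SKBR3 and MDA-MB-453 are established human breast cancer lines that carry amplified or overexpressed HER2, and each stands here for 1 line only. Each line was sampled as 3 untreated and 3 TWEAK-treated libraries, which makes 4 groups and 12 libraries. Per the methods of the study, both lines were kept in Dulbecco's modified Eagle's medium with 10% fetal bovine serum. TWEAK, a cytokine of the tumour necrosis factor family that acts through the receptor Fn14, was given at 10 ng/ml for 48 h and was replenished after 24 h, following 8 h of starvation in Opti-MEM. The labels carry this same text for the untreated libraries and do not say how those cells were handled over the 48 h.

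The libraries held between 24773003 and 35208304 counts on genes. The TWEAK-treated replicate 2 stood apart from the other TWEAK-treated libraries of its line: the chi-square per degree of freedom of pairs that included it was 18.7 to 21.1 in SKBR3 against 1.70 to 5.20 for all other pairs within a group, and 4.85 to 9.20 against 1.99 to 2.67 in MDA-MB-453. Values of the members in TWEAK-treated cells are given without it where it moved a call, a sign or an order. ERBB2, which encodes HER2, stood at 7578 ± 285 CPM, counts scaled to a library of 1000000 after TMM normalisation over the 12 libraries, in untreated SKBR3 and at 890 ± 16.1 CPM in untreated MDA-MB-453 (SD, n = 3). The summed level of 6 markers of HER2 luminal epithelial lines was 18186 to 19794 CPM in untreated and 19422 to 22418 CPM in TWEAK-treated SKBR3. Among them KRT19 was 0.32 ± 0.091 higher with TWEAK there (log2 fold change ± SE, edgeR adjusted p = 0.0608), and 5 did not pass the threshold. The sum was 3643 to 3773 CPM over the MDA-MB-453 libraries, and 5 immune markers summed to at most 0.930 CPM in any library. The sum of 4 fibroblast markers was 17.5 to 21.0 CPM over the SKBR3 libraries and 107 to 123 CPM over those of MDA-MB-453, nearly all of it from COL1A1, a collagen gene, at 19.2 ± 1.44 CPM in untreated SKBR3 and 120 ± 3.57 CPM in untreated MDA-MB-453. DCN, which encodes the matrix protein decorin, had 0 counts in MDA-MB-453. COL1A2, another collagen gene of the list, had 1 to 3 counts per library in untreated and 8 to 12 in TWEAK-treated SKBR3. In SKBR3 the sum of 3 endothelial markers was 3.89 to 5.10 CPM without and 6.43 to 7.72 CPM with TWEAK, through CDH5, which encodes an endothelial cadherin. The part of these cells' markers in the results below was not tested. The study reported low Fn14 protein in HER2 lines, and protein was not measured in these libraries. The transcript of TNFRSF12A, the gene of Fn14, was found in every group. It was 0.36 ± 0.090 higher (log2 fold change ± SE) in TWEAK-treated SKBR3 (edgeR quasi-likelihood test, adjusted p = 0.0322). Its log2 fold change in MDA-MB-453 was 0.17 ± 0.045 and did not pass the threshold (edgeR, adjusted p = 0.129). In SKBR3 the TWEAK-treated replicate 2 was the highest treated library for both TNFRSF12A and KRT19. The fold changes of these genes are not given without it.

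The promoters of IL27RA, IL6ST and STAT3 are shown because these genes carry the responses described below: the response with the highest fold among the members in SKBR3, the response seen in both lines and that of the transcription factor itself. Each line gives the 250 bases before the start of the gene in RefSeq (GRCh38.p14), 5′ to 3′ on the coding strand, at chr19:14031512-14031761 on the plus strand for IL27RA, chr5:55994964-55995213 on the minus strand for IL6ST and chr17:42388443-42388692 on the minus strand for STAT3. The RefSeq starts of IL6ST and STAT3 lie inside the GENCODE spans of these genes given below, so that their windows overlap those spans. Capitals mark the match to the NF-κB consensus.
IL27RA: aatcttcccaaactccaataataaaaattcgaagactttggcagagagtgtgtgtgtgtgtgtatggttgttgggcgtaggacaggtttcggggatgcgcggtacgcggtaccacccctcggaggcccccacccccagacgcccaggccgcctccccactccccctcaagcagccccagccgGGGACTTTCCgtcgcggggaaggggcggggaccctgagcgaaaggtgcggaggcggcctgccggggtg
IL6ST: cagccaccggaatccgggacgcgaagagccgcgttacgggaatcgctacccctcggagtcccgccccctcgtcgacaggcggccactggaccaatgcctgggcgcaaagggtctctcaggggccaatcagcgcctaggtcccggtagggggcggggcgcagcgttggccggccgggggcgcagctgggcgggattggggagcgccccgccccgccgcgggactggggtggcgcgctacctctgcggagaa
STAT3: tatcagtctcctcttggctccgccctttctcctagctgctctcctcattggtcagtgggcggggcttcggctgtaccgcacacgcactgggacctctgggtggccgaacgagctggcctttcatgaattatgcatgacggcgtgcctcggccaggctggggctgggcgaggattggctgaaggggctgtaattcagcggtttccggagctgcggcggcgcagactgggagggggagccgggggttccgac
The windows were searched on both strands for the NF-κB consensus, for the STAT motif TTCNNNGAA and for the AP-1 motif TGANTCA. IL27RA held a match to the NF-κB consensus 68 to 59 bases before its start, and such a match occurred in 5.21% of 35116 promoter windows of the same length. No match to these letters was found in the windows of IL6ST and STAT3. Of the 9 members with an entry, LIFR held a STAT motif in 2 of its alternative promoters, and a STAT motif occurred in 6.57% of all windows. The GC content was 64.0% for IL27RA, 73.6% for IL6ST and 64.4% for STAT3.

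IL6ST (ENSG00000134352, chr5:55935095-55995022 on hg38) encodes gp130, through which the receptors of the family signal. Its transcript was higher with TWEAK in both lines, from very different starting levels. Replicates are listed in the order 1, 2, 3. In SKBR3, IL6ST stood at 67.8, 63.5 and 57.2 CPM in the untreated and at 162, 106 and 162 CPM in the TWEAK-treated libraries. Every treated library lay above every untreated one, and the treated replicate 2 was the lowest of the 3. In MDA-MB-453 the untreated libraries held only 52, 55 and 46 counts of IL6ST, or 1.93, 2.01 and 1.69 CPM, and the TWEAK-treated libraries 10.6, 11.1 and 10.3 CPM. The groups again did not overlap, and the treated level in MDA-MB-453 stayed far below the untreated level in SKBR3. The log2 fold change from the edgeR fit was 1.18 (SE 0.142) in SKBR3, rank 254 from the top of 15661 genes tested, and 2.50 (SE 0.105) in MDA-MB-453, rank 11 of 14929. Without TWEAK-treated replicate 2 these values were 1.36 (SE 0.0563) and 2.47 (SE 0.119). In such bulk libraries, a change in the number of cells that express a gene and a change in RNA per cell cannot be told apart. An antisense gene covers 6.61% of the exonic bases of IL6ST, and the strand setting of the counting was not stated.

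IL27RA (ENSG00000104998, chr19:14031762-14053218) encodes the ligand-specific chain of the receptor for IL-27, which signals together with gp130. In SKBR3 its transcript started from few counts, and its response was among the strongest in the line. The untreated libraries of SKBR3 held 12, 19 and 16 counts of IL27RA, which is 0.431, 0.787 and 0.660 CPM. The TWEAK-treated libraries held 427, 481 and 447 counts, which is 17.3, 19.3 and 18.7 CPM. The treated libraries lay close together and far above the untreated ones, and the log2 fold change of 4.88 (SE 0.156) was rank 14 of the 15661 genes tested. It was 4.85 without TWEAK-treated replicate 2. In MDA-MB-453, IL27RA stood at 2.49, 2.52 and 2.97 CPM without and at 3.39, 3.25 and 3.74 CPM with TWEAK. These groups did not overlap, but the log2 fold change of 0.39 (SE 0.130) was not past the threshold of the fit across all genes, and it was past the threshold at 0.43 when TWEAK-treated replicate 2 was left out. The line with more IL27RA before treatment was thus the line with the smaller change.

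**Figure D1:**
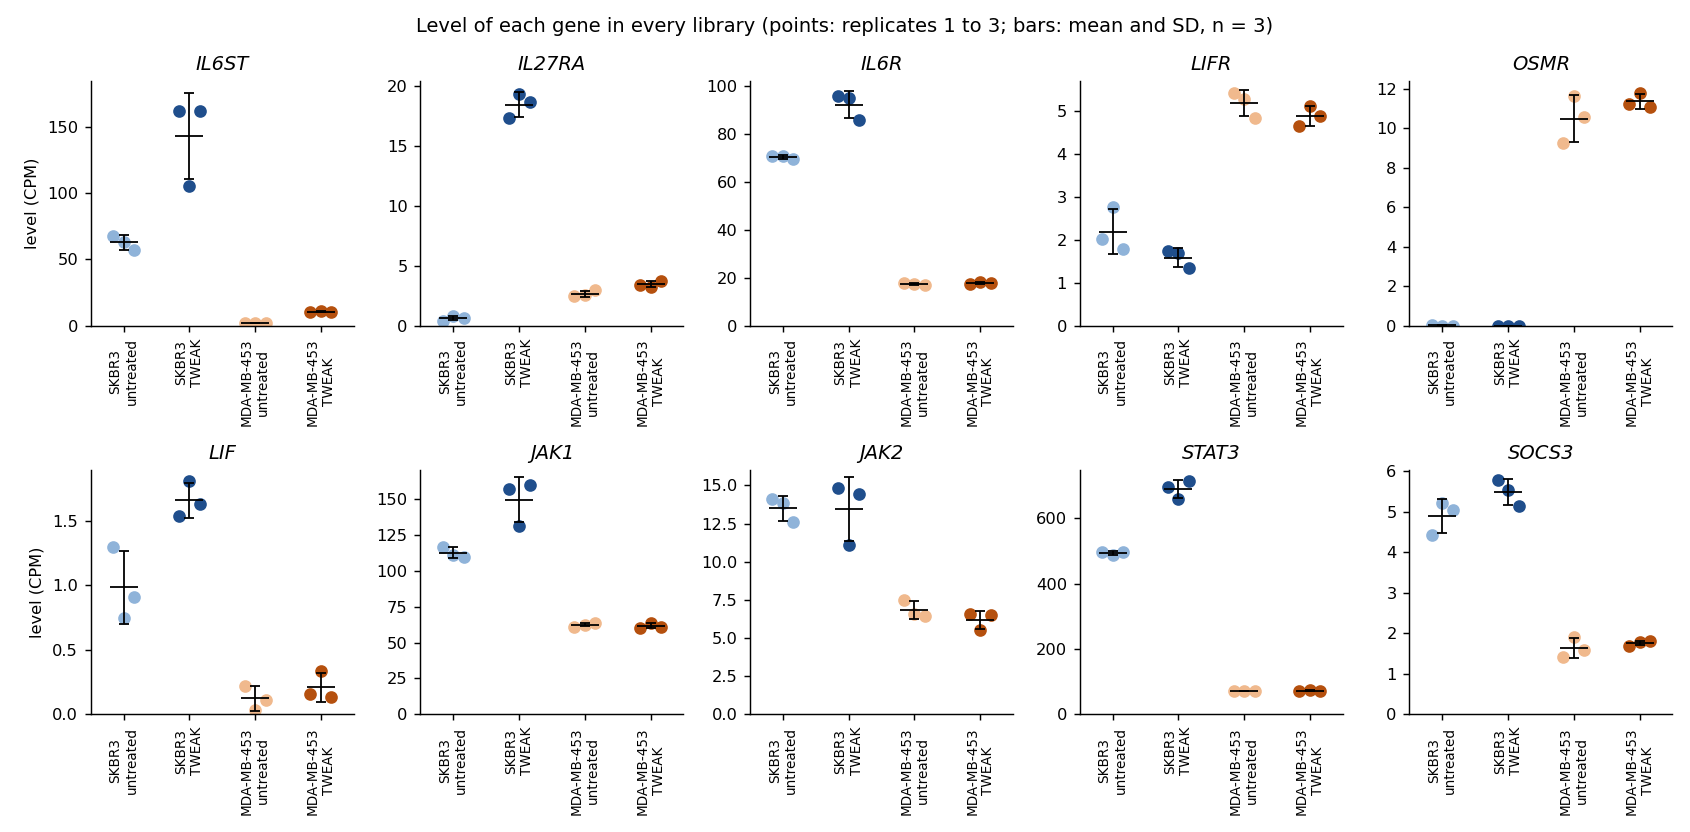
Level of each of the 10 genes in each of the 12 libraries, in CPM on the vertical axis, with a panel and a linear scale of its own for each gene and the 4 groups side by side. Points are libraries and bars are the mean and SD over n = 3. IL27RA in SKBR3 and IL6ST in both lines show treated libraries well above the untreated ones, whereas OSMR lies at the bottom of its panel in SKBR3.

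The other ligand-specific receptors showed smaller differences with TWEAK. IL6R (ENSG00000160712, chr1:154405193-154469450) encodes the chain that binds IL-6 itself. In SKBR3 it stood at 70.8, 70.8 and 69.4 CPM without and at 95.8, 95.1 and 85.5 CPM with TWEAK, a log2 fold change of 0.38 (SE 0.0660) with no overlap of the groups. In MDA-MB-453 the libraries lay between 16.8 and 18.1 CPM in both groups, with a log2 fold change of 0.04 (SE 0.0565). LIFR (ENSG00000113594, chr5:38474668-38608354) encodes the receptor that pairs with gp130 to bind LIF. In SKBR3 it was low, at 2.01, 2.77 and 1.77 CPM without and 1.74, 1.68 and 1.34 CPM with TWEAK. The treated libraries were the lower ones, but the log2 fold change of -0.46 (SE 0.213) was not past the threshold. In MDA-MB-453, LIFR stood at 5.42, 5.29 and 4.85 CPM without and at 4.66, 5.11 and 4.88 CPM with TWEAK, and these groups overlapped. The antisense gene LIFR-AS1 covers 5.17% of the exonic bases of LIFR.

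OSMR (ENSG00000145623, chr5:38845858-38945596), the receptor chain for oncostatin M, separated the lines outright. The 6 SKBR3 libraries held 1 count in all, in untreated replicate 1, so OSMR was not tested in that line. MDA-MB-453 held 9.25, 11.6 and 10.5 CPM without and 11.2, 11.8 and 11.1 CPM with TWEAK, and these groups overlapped, with a log2 fold change of 0.11 (SE 0.0840). Measured against a floor of 3 counts per library, OSMR was at least 84.3-fold higher in untreated MDA-MB-453 than in untreated SKBR3, and at least 90.7-fold higher in the treated cells. LIF (ENSG00000128342, chr22:30240453-30246759), the member that encodes a secreted ligand, showed the opposite distribution. SKBR3 held 36, 18 and 22 counts of LIF without and 38, 45 and 39 counts with TWEAK, or 1.29, 0.745 and 0.908 CPM against 1.54, 1.80 and 1.63 CPM. The treated libraries were the higher ones, by a log2 fold change of 0.73 (SE 0.231), but this call held in only 6 of 14 settings of the fit. It was lost with DESeq2, with an adjusted p of at most 0.05, with the replicate number as a block, and on leaving out untreated replicate 2 or 3 or any of the 3 treated libraries. Without TWEAK-treated replicate 2 the log2 fold change of LIF was 0.66 (SE 0.263). In MDA-MB-453, LIF had 1 to 9 counts per library and was not tested.

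JAK1 and JAK2 encode the kinases bound to the receptor chains. JAK1 (ENSG00000162434, chr1:64833223-65067754) stood at 117, 111 and 110 CPM in untreated and at 157, 131 and 160 CPM in TWEAK-treated SKBR3. The groups did not overlap, the treated replicate 2 was again the lowest treated library, and the log2 fold change of 0.40 (SE 0.0773) was 0.49 without it. In MDA-MB-453, JAK1 lay between 60.5 and 63.7 CPM over all 6 libraries, with a log2 fold change of -0.01 (SE 0.0411). JAK2 (ENSG00000096968, chr9:4984390-5129948) did not separate the groups in either line. Its levels were 14.1, 13.8 and 12.6 CPM against 14.8, 11.1 and 14.4 CPM in SKBR3, and 7.51, 6.56 and 6.46 CPM against 6.58, 5.52 and 6.49 CPM in MDA-MB-453. JAK2 had log2 fold changes of -0.01 (SE 0.113) and -0.14 (SE 0.0996), and the value in SKBR3 turned positive when untreated replicate 1 or 2 or treated replicate 2 was left out. Without treated replicate 2 that value was 0.11 (SE 0.0853).

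STAT3 (ENSG00000168610, chr17:42313324-42388540), the transcription factor of the pathway, was abundant in SKBR3 and higher still with TWEAK. It stood at 497, 487 and 496 CPM in the untreated and at 695, 659 and 713 CPM in the treated libraries of SKBR3. The replicates lay close together in both groups, and the log2 fold change was 0.48 (SE 0.0547). In MDA-MB-453, STAT3 stood at 70.6, 71.4 and 71.7 CPM without and at 70.4, 73.6 and 71.6 CPM with TWEAK, with a log2 fold change of 0.01 (SE 0.0389), or -0.01 without TWEAK-treated replicate 2. SOCS3 (ENSG00000184557, chr17:78356778-78360077), the inhibitor that STAT3 switches on, was low in both lines. It stood at 4.42, 5.22 and 5.03 CPM without and at 5.78, 5.53 and 5.14 CPM with TWEAK in SKBR3. In MDA-MB-453 it stood at 1.41, 1.90 and 1.58 CPM without and at 1.69, 1.79 and 1.80 CPM with TWEAK. The groups overlapped in both lines, with log2 fold changes of 0.16 (SE 0.116) and 0.11 (SE 0.169). These are transcript levels, and phosphorylation of STAT3 was not measured in these libraries.

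Over the list, 9 of the 10 genes passed the filter on low counts in each line, OSMR being left out in SKBR3 and LIF in MDA-MB-453. In SKBR3, 6 of the 9 (IL6ST, IL27RA, IL6R, LIF, JAK1 and STAT3) were on the higher side of the threshold, an adjusted p of at most 0.1, and the other 3 (LIFR, JAK2 and SOCS3) did not pass it. Of all genes tested in SKBR3, 10.4% passed the threshold, 6.6% as higher and 3.82% as lower. The treated and untreated groups did not overlap for the same 6 genes and, as lower, for LIFR, beside 26.5% of all genes tested, 14.4% as higher and 12.2% as lower. In MDA-MB-453 only IL6ST passed the threshold, beside 1.49% of all genes tested, 1.29% as higher and 0.208% as lower. The groups of IL6ST and IL27RA did not overlap there, beside 15.1% of all genes tested, 8.19% as higher and 6.88% as lower. The members tested had a median log2 fold change of 0.40 in SKBR3, beside -0.01 over all genes tested, and of 0.04 in MDA-MB-453, beside 0.00. Without TWEAK-treated replicate 2 of the line, 2780 of 15996 genes tested passed in SKBR3, 1589 as higher and 1191 as lower, and LIF did not. In MDA-MB-453, 2101 of 15216 genes then passed, 1003 as higher and 1098 as lower, and IL27RA passed as well. Because the list was chosen with these contrasts known, nothing is read from the counts.

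**Figure D2:**
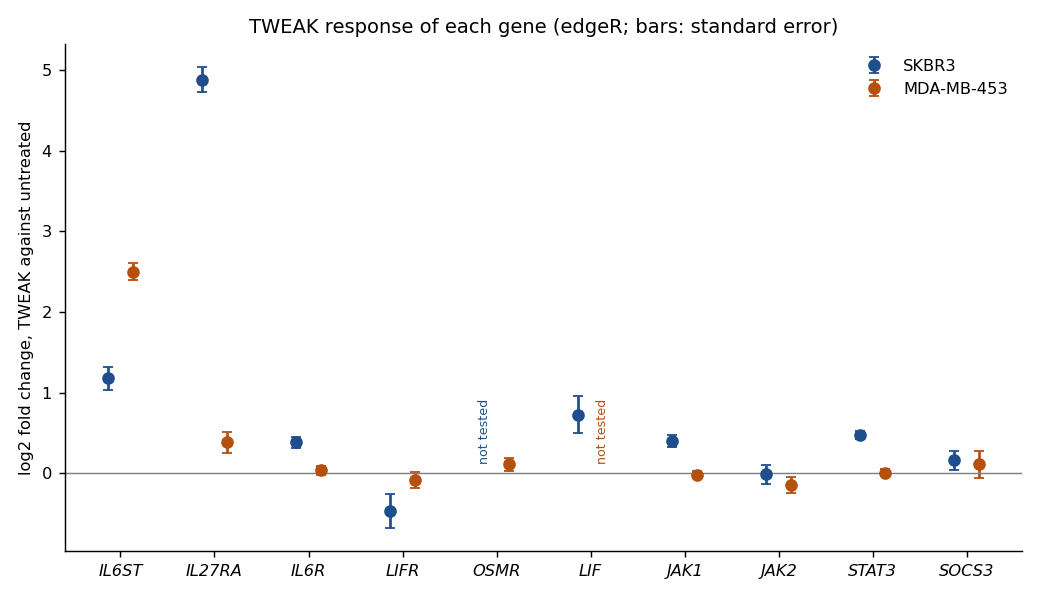
Log2 fold change of each member in TWEAK-treated against untreated cells, by line, with bars of 1 SE; OSMR in SKBR3 and LIF in MDA-MB-453 were not tested. IL27RA in SKBR3 lies at 4.88 and IL6ST in MDA-MB-453 at 2.50, whereas STAT3 and JAK1 lie at 0.48 and 0.40 in SKBR3 and near 0 in MDA-MB-453.

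The difference of the log2 response between the lines was fitted as an interaction over all 12 libraries, which use the same untreated groups as the values above. The response of IL6ST was 1.31 (SE 0.246) higher in MDA-MB-453 than in SKBR3. Those of IL27RA, STAT3, JAK1 and IL6R were lower in MDA-MB-453, by log2 differences of -4.50 (SE 0.216), -0.47 (SE 0.0630), -0.42 (SE 0.0917) and -0.35 (SE 0.0824). These 5 genes were past the threshold, beside 3.37% of all 17201 genes tested, 1.01% as higher and 2.36% as lower, and LIFR, JAK2 and SOCS3 were not. Without TWEAK-treated replicate 2 of SKBR3 these 5 were still past it, beside 1150 of 17586 genes tested. OSMR and LIF had too few counts in a line for a response there and were not compared. IL6R was no longer past it when untreated replicate 1 of MDA-MB-453 was left out.

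The untreated libraries give the transcript levels of the members in each line before TWEAK. MDA-MB-453 held less transcript of IL6ST, IL6R, JAK1, JAK2, STAT3, SOCS3 and LIF than SKBR3, and more of IL27RA, LIFR and OSMR. These libraries were in view when the genes were chosen, so the values are again a description. All 10 members lay past the threshold, 7 lower and 3 higher in MDA-MB-453, beside 87.2% of the 16315 genes tested between the lines, 44.8% as lower and 42.4% as higher. OSMR and LIF passed the filter on low counts only through the line in which they are high, and nothing is read from the count. The log2 difference of IL6ST was -5.07 (SE 0.0928), which is 33.5-fold lower in MDA-MB-453. STAT3 was 6.92-fold lower (log2 difference -2.80, SE 0.0396), IL6R 4.07-fold, JAK2 1.97-fold and JAK1 1.81-fold lower, and the log2 difference of SOCS3 was -1.58 (SE 0.150). For LIF, with 6, 1 and 3 counts in untreated MDA-MB-453, the log2 difference was -2.98 (SE 0.417), and it was -3.67 without replicate 1 of that group and -2.54 without replicate 2. IL27RA was 4.25-fold higher (log2 difference 2.09, SE 0.220) and LIFR 2.37-fold higher in MDA-MB-453. The libraries of a line may also share a batch, and line and batch cannot be told apart.

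Levels of different genes were compared as CPM per kb of exon. In untreated SKBR3, STAT3 led with 44.01 ± 0.482 CPM per kb (SD, n = 3), followed by IL6R at 10.1 ± 0.113, JAK1 at 8.55 ± 0.277 and IL6ST at 5.21 ± 0.442. The libraries of these neighbours did not overlap. SOCS3 at 1.79 and JAK2 at 1.71 CPM per kb did overlap, as did LIF at 0.254, IL27RA at 0.212 and LIFR at 0.180, each with its neighbour, and OSMR was last. With TWEAK, IL6ST at 11.9 ± 2.71 CPM per kb lay between IL6R at 13.2 ± 0.820 and JAK1 at 11.3 ± 1.19. The libraries of IL6ST overlapped with those of both, whereas every IL6R library lay above every JAK1 library. Without TWEAK-treated replicate 2, IL6ST lay at 13.4 to 13.5 CPM per kb, above JAK1 at 11.9 to 12.1 and within the range of IL6R, 12.2 to 13.7. IL27RA moved from among the lowest members to 6.24 ± 0.350 CPM per kb, above SOCS3 and JAK2.

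In untreated MDA-MB-453, STAT3 led with 6.36 ± 0.0499 CPM per kb, ahead of JAK1 at 4.73 ± 0.0829, IL6R at 2.47 ± 0.0703 and OSMR at 1.46 ± 0.166. IL27RA at 0.902 and JAK2 at 0.865 CPM per kb overlapped and were followed by SOCS3, LIFR, IL6ST at 0.156 ± 0.0137 and LIF. With TWEAK, IL6ST stood at 0.883 ± 0.0335 CPM per kb, above JAK2, SOCS3 and LIFR and below IL27RA at 1.17 ± 0.0857. With the length of the MANE Select transcript this last order was not resolved. IL6ST then stood at 1.18 and IL27RA at 1.17 CPM per kb, and their libraries overlapped. The gp130 transcript was thus the least abundant receptor chain of the list in untreated MDA-MB-453, and in untreated SKBR3 the receptor chain second to IL6R. The order depends on the length used, most of all for JAK1. With the MANE Select length JAK1 lay above IL6R in SKBR3, at 22.1 against 12.2 CPM per kb in untreated and 29.3 against 15.99 CPM per kb in TWEAK-treated cells, and its libraries did not overlap with those of IL6R or IL6ST. With the MANE Select length in place of all exons, an alternative chosen after the data were seen, as was leaving out TWEAK-treated replicate 2 from these levels, 6 of the 10 genes kept their place in untreated SKBR3.

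**Figure D3:**
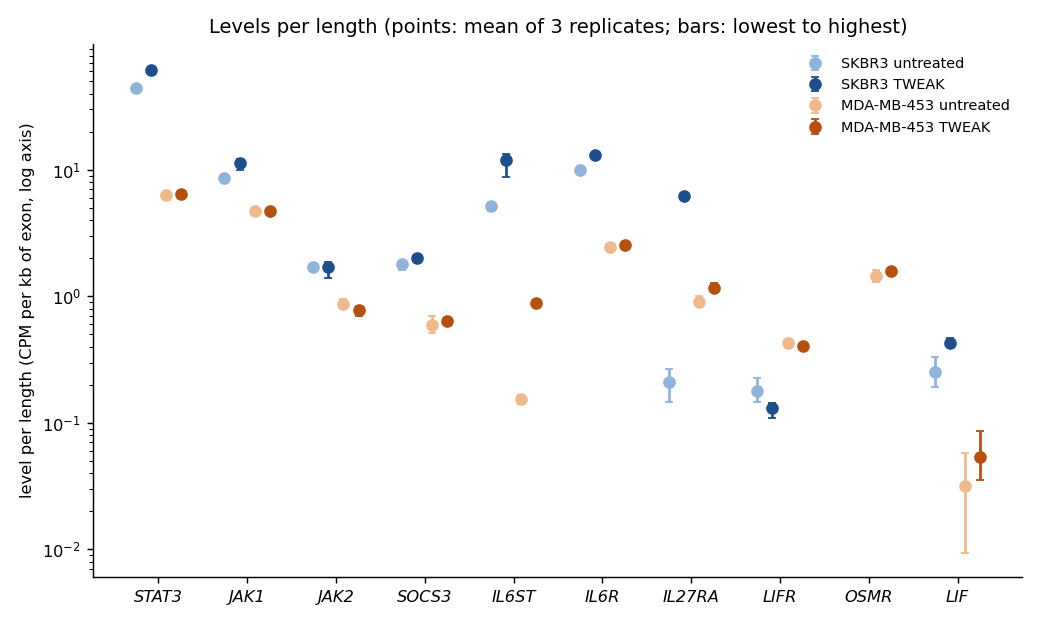
Mean level of each member in CPM per kb of exon, on a log axis, for the 4 groups, with bars from the lowest to the highest of n = 3 libraries; OSMR in SKBR3, at 0 or 1 count per library, is not shown. STAT3 is highest in every group, IL6ST in MDA-MB-453 moves from 0.156 to 0.883 CPM per kb with TWEAK, and IL27RA in SKBR3 from 0.212 to 6.24.

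The rest of the pathway was followed through 73 other genes in 6 roles, listed by function. This list too was put together with earlier results of these data known, so that its p-values are not independent evidence of a direction. In SKBR3, 52 of them could be tested, of which 12 rose, 5 fell and 35 did not pass the threshold. In MDA-MB-453, 44 could be tested, of which 5 rose, 1 fell and 38 did not pass it. The shares of all genes tested that passed were 10.4% and 1.49%, as above, and the list had a median log2 fold change of 0.03 in SKBR3 and of 0.00 in the other line. Of the 44 genes tested in both lines, 30 passed in neither, 8 in SKBR3 alone, 1 in MDA-MB-453 alone and 5 in both. Without TWEAK-treated replicate 2 of the line, all 17 calls in SKBR3 and all 6 in MDA-MB-453 were still made in the same direction. Over all genes, 2780 of 15996 tested then passed in SKBR3, in place of 1633 of 15661. In MDA-MB-453, 2101 of 15216 then passed, in place of 223 of 14929.

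**Figure D4:**
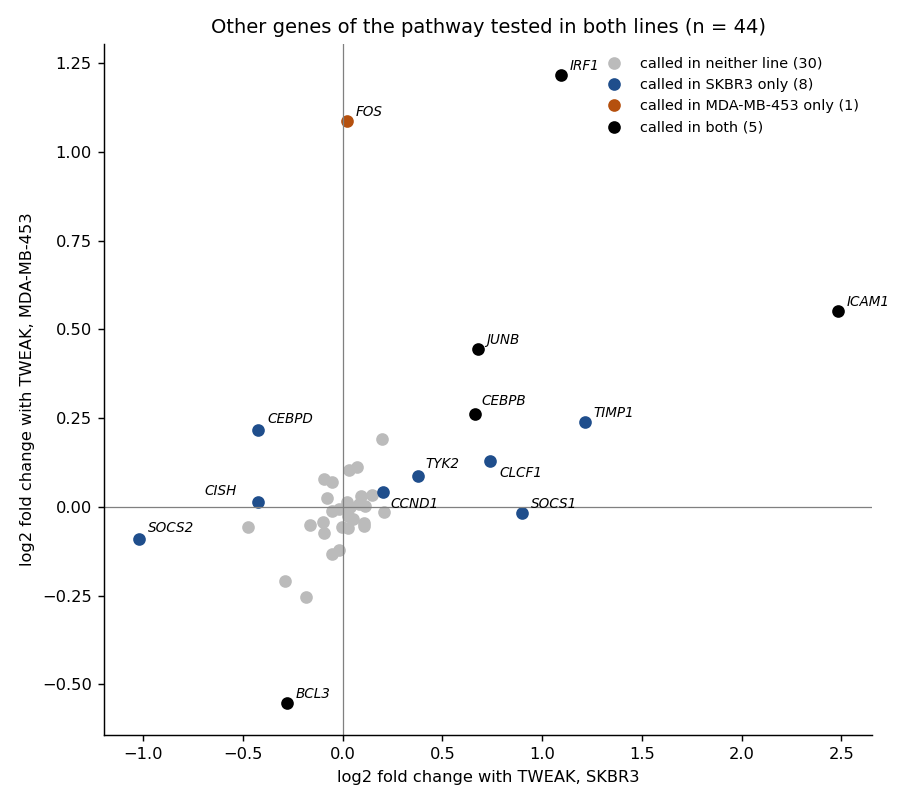
Log2 fold change with TWEAK in SKBR3 (horizontal axis) against MDA-MB-453 (vertical axis) for the 44 pathway genes tested in both lines, coloured by the line in which a gene passed the threshold. IRF1 lies at 1.09 in SKBR3 and 1.22 in MDA-MB-453, ICAM1 at 2.48 and 0.55, and SOCS1 and SOCS2 lie on opposite sides of 0 in SKBR3.

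Most ligands of the family were scarce. CTF1 and OSM had at most 3 counts in any library and IL31 had 0 in all 12, and the receptor genes IL12RB1 and IL31RA likewise had at most 3. IL6 was not tested, with 0 to 3 counts per library in untreated and 7 to 9 in TWEAK-treated SKBR3, and neither was EBI3, which encodes a subunit of IL-27, with 0 counts in untreated and 3 to 5 per library in TWEAK-treated MDA-MB-453. In both cases the treated libraries were the higher ones, without overlap. Among the 4 ligands tested in SKBR3, CLCF1, which encodes a cytokine that acts through the CNTF receptor, rose from 1.69 ± 0.244 to 2.84 ± 0.183 CPM (SD, n = 3; log2 fold change 0.74, SE 0.168, edgeR adjusted p = 0.0201). That call was lost without untreated replicate 2, at an adjusted p of 0.1045, and adjusted p ranged from 0.00363 to 0.1045 over all edgeR and DESeq2 settings. IL11, CNTF and IL27 had log2 fold changes of -0.18 (SE 0.221), -0.29 (SE 0.268) and 0.22 (SE 0.401) in SKBR3. The receptor genes tested there were IL11RA at 0.20 (SE 0.226) and CNTFR at -0.75 (SE 0.339). The proteases ADAM10 and ADAM17, which shed the IL-6 receptor from the cell surface, had log2 fold changes of 0.05 (SE 0.0900) and 0.21 (SE 0.0776) in SKBR3. None of these passed the threshold, and neither did the ligands, receptor and proteases tested in MDA-MB-453.

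Among the other JAK and STAT genes, 2 of 6 rose in SKBR3, where 6.6% of all genes tested passed as higher. In MDA-MB-453, 0 of 4 passed with edgeR or DESeq2, beside 1.49% of all genes tested with edgeR. Nothing is read from that count. TYK2, the third JAK used by the family, rose from 82.2 ± 2.07 to 107 ± 4.48 CPM in SKBR3 (SD, n = 3; log2 fold change 0.38, edgeR adjusted p = 0.00268). STAT5A, a transcription factor of prolactin signalling, rose from 3.54 ± 0.269 to 7.99 ± 0.792 CPM (log2 fold change 1.17, edgeR adjusted p = 0.000115). In MDA-MB-453, STAT5A had at most 6 counts in a library and was not tested. The exons of STAT5A overlap those of STAT5B on the other strand by 6.5%.

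In SKBR3, where 6.6% of all genes tested passed as higher and 3.82% as lower, 15 negative regulators were tested. SOCS1 rose, SOCS2 and CISH fell and 12 did not pass, and nothing is read from these counts. SOCS1, SOCS2 and CISH belong to the same family of inhibitors as SOCS3. SOCS1 rose from 6.10 ± 0.831 to 11.4 ± 0.785 CPM (SD, n = 3; log2 fold change 0.90, edgeR adjusted p = 0.000492). SOCS2 fell from 2.07 ± 0.184 to 1.02 ± 0.211 CPM (log2 fold change -1.02, edgeR adjusted p = 0.0102), and CISH from 52.8 ± 1.18 to 39.5 ± 0.687 CPM (log2 fold change -0.42, edgeR adjusted p = 0.00126). In MDA-MB-453, 0 of 15 passed with edgeR or DESeq2, beside 1.49% of all genes tested with edgeR, and nothing is read from this count.

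Of 33 genes listed as STAT3 targets, 23 were tested in SKBR3, of which 8 rose and 3 fell, and 19 in MDA-MB-453, of which 5 rose and 1 fell. Many of them are also targets of NF-κB and AP-1, so that the name of the list does not say which factor acted. ICAM1, an adhesion molecule, rose from 3.92 ± 0.223 to 22.0 ± 2.18 CPM in SKBR3 (SD, n = 3; log2 fold change 2.48, edgeR adjusted p = 1.70e-07). In MDA-MB-453 it rose from 6.68 ± 0.469 to 9.80 ± 0.229 CPM (log2 fold change 0.55, edgeR adjusted p = 0.00201). IRF1, an interferon-responsive transcription factor, rose to 14.7 ± 0.909 CPM from 6.87 ± 0.661 in SKBR3, and to 14.4 ± 1.61 CPM from 6.16 ± 0.663 in MDA-MB-453 (log2 fold changes 1.09 and 1.22, edgeR adjusted p = 4.33e-05 and 8.69e-06). JUNB, a subunit of AP-1, rose in both lines, by log2 fold changes of 0.68 and 0.44 (edgeR adjusted p = 0.000435 and 8.47e-05). CEBPB, a transcription factor of the acute phase, rose by 0.66 in SKBR3 (edgeR adjusted p = 8.57e-05) and by 0.26 in MDA-MB-453 (edgeR adjusted p = 0.0310). The call in MDA-MB-453 was lost in 5 of 14 settings, among them leaving out any untreated library or TWEAK-treated replicate 3, with adjusted p from 0.000339 to 0.166. Genes on the other strand cover 23.6% of the exonic bases of ICAM1, 22.9% of IRF1, 14.2% of JUNB and 12.6% of CEBPB. Among the targets described next, they cover 18.4% of MMP9 and 10.4% of CCND1.

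The other targets passed in a single line, apart from BCL3. MMP9 and MMP2 encode proteases of the extracellular matrix. MMP9 rose in SKBR3 to 22.3 ± 1.41 CPM from 3.59 ± 0.848 (SD, n = 3; log2 fold change 2.63, edgeR adjusted p = 5.11e-07). MMP2 stood there at 0.990 ± 0.226 CPM with and 0.201 ± 0.0906 CPM without TWEAK, a log2 fold change of 2.30. It had 3 to 7 counts per untreated and 20 to 31 per treated library and passed the filter on low counts through the treated ones. Its values are therefore a description, without a p-value, although it is counted above among the genes that rose. In MDA-MB-453 neither could be tested, and MMP9 had at most 3 counts in a library. TIMP1, an inhibitor of such proteases, rose in SKBR3 from 5.81 ± 1.24 to 13.5 ± 1.69 CPM (log2 fold change 1.21, edgeR adjusted p = 0.000391). CCND1, which encodes cyclin D1, rose by 0.20 in SKBR3 (edgeR adjusted p = 0.0502), a call that held in 7 of 14 settings, with adjusted p from 0.000389 to 0.241. It was lost without any of the 3 untreated libraries and without TWEAK-treated replicate 1 or 3. MUC1, a cell surface mucin, fell in SKBR3 from 55.8 ± 4.28 to 39.7 ± 3.39 CPM (log2 fold change -0.50, edgeR adjusted p = 0.00374). In MDA-MB-453, MUC1 had 1 to 7 counts per library and was not tested. CEBPD, related to CEBPB, fell in SKBR3 from 6.64 ± 0.342 to 4.96 ± 0.469 CPM (edgeR adjusted p = 0.0470). This call was lost without any of the untreated libraries or TWEAK-treated replicate 1, with edgeR adjusted p up to 0.167.

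BCL3, an IκB family protein that acts in the nucleus, fell in both lines, to 61.2 ± 2.56 from 74.1 ± 4.62 CPM in SKBR3 and to 38.6 ± 1.25 from 56.7 ± 2.39 CPM in MDA-MB-453 (SD, n = 3; log2 fold changes -0.28 and -0.55, edgeR adjusted p = 0.0328 and 1.11e-05). The call in SKBR3 was lost without untreated replicate 1 or 3 or TWEAK-treated replicate 1, with adjusted p from 0.000346 to 0.148 over the settings. FOS, another AP-1 subunit, stood at 1.01 ± 0.181 and 2.13 ± 0.629 CPM in MDA-MB-453 and rose (log2 fold change 1.09, edgeR adjusted p = 0.0424), and its call was lost without any untreated library or TWEAK-treated replicate 3, with adjusted p up to 0.299.

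The genes whose pattern over the 12 libraries was most like that of 3 members were found by the root mean square difference of log2 CPM, centred in each line on its untreated libraries, over 13489 genes tested in both lines. For IL6ST they were TNFAIP3 at 0.214, RELB at 0.323, KLHL5 at 0.369, MAP3K14 at 0.393 and MOB3B at 0.426, with a median of 1.39 over all genes. The mean of TNFAIP3 was 8.38 CPM without and 20.5 CPM with TWEAK in SKBR3, and 0.527 and 2.90 CPM in MDA-MB-453 (n = 3). For IL27RA they were VASH2 at 0.418, RDH16 at 0.702, RUNX2 at 0.708, ANKRD22 at 0.787 and FAS at 0.802, with a median of 2.46. RUNX2 was at 0.0497 CPM in untreated SKBR3, a level at which its distance depends on the prior count. The same limit holds for KLHL5 and MOB3B, at 0.159 and 0.172 CPM in untreated MDA-MB-453. It also holds for FAS, at 0.294 CPM in untreated SKBR3 and 0.221 CPM in untreated MDA-MB-453. For STAT3 they were PDE4DIP at 0.0360, SLC2A1 at 0.0398, NFE2L1 at 0.0416, KIAA1522 at 0.0423 and KHNYN at 0.0432, with a median of 0.278.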

How the data were processed

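RNA was sequenced from 2 HER2 breast cancer lines, untreated or TWEAK-treated, in 3 biological replicates per group. Per the labels and the methods of the study, the authors removed adaptors with Trimmomatic, aligned the reads with STAR (genome hg38), assigned them to genes with featureCounts, and deposited raw counts per gene without normalisation. Versions, annotation release, strand setting and the treatment of multi-mapping reads are not given in the sources used here, and the kit named in the methods is directional while the labels name a DNA library kit. Names and positions were taken from GENCODE release 44 on hg38, which matched 62625 of 62696 identifiers without their version.

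Counts were tested with edgeR 4.0.16 in R 4.3.3 (filterByExpr, TMM, quasi-likelihood test, Benjamini-Hochberg adjustment over all genes tested, threshold 0.1, as in the study), within each line, between the untreated lines, and as the interaction of line and treatment. Standard errors were derived from the F statistic. CPM were scaled by TMM over 12 libraries, log2 CPM with a prior count of 0.5 served in the search for like patterns and in the pairing check, and fitted log2 fold changes used a prior count of 0.125. Depth limits the precision of genes with few counts, and a floor of 3 counts per library was used for lower bounds. A p-value measures the spread between 3 libraries of 1 line, and an exact permutation test of 3 against 3 could not give a p below 0.1.

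The 10 members and the 73 pathway genes were chosen with earlier results of these data known, and 1 further gene of the pathway is not reported here. Genes named are the members, the pathway genes past the threshold in at least 1 line, the ligands and receptors with at most 3 counts in every library, and the 5 genes nearest in pattern to IL6ST, IL27RA and STAT3. Any other gene named was chosen after its values were seen. As alternatives, each library was left out in turn, a threshold of 0.05 was set, and the fit was repeated with a term for the replicate number, over all 12 libraries together, with no filter, with at least 10 counts in every library, and with the size factors or the test of DESeq2 1.42.0.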

Additional observations from a re-analysis of the deposited data

Results flagged for a closer look

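The difference between the lines in the response to TWEAK was fitted as the interaction of line and treatment in edgeR over all 12 libraries. Of the 52 other pathway genes tested, 9 passed an adjusted p of at most 0.1, beside 3.37% of all genes tested. The pathway list too was put together with earlier results of these data known, and nothing is read from that count. Of the 73 pathway genes, 44 were tested in both lines separately, so some of the 52 had too few counts in a line. Without TWEAK-treated replicate 2 of SKBR3, 1150 of 17586 genes passed, in place of 579 of 17201. The 10 members were chosen with these responses known, and the values of the 5 that lay past the same threshold are given as a description, with nothing read from their number. A positive value means a higher log2 response in MDA-MB-453. Among the members it was 1.31 for IL6ST, -4.50 for IL27RA, -0.47 for STAT3, -0.42 for JAK1 and -0.35 for IL6R. In MDA-MB-453 itself the log2 fold changes of STAT3, JAK1 and IL6R were 0.01, -0.01 and 0.04.

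Among the kinases, the difference was -0.29 for TYK2 (edgeR adjusted p = 0.0505). For the inhibitors it was -0.92 for SOCS1 (edgeR adjusted p = 0.0398), 0.92 for SOCS2 (edgeR adjusted p = 0.0145) and 0.43 for CISH (edgeR adjusted p = 0.00386). Among the listed STAT3 targets it was -1.93 for ICAM1 (edgeR adjusted p = 1.30e-07), -0.98 for TIMP1 (edgeR adjusted p = 0.00157), -0.40 for CEBPB (edgeR adjusted p = 0.0161), 0.64 for CEBPD (edgeR adjusted p = 0.0242) and 1.06 for FOS (edgeR adjusted p = 0.0528). The call held in 9 of 19 settings for TYK2, in 13 of 19 for FOS and in 16 of 19 for SOCS1, with adjusted p over the settings up to 0.163, 0.186 and 0.135, and in all 19 settings for the other 6 pathway genes. Without TWEAK-treated replicate 2 of either line, all 9 pathway calls were still made, and the difference was 1.15 or 1.28 for IL6ST and -4.45 or -4.46 for IL27RA, in the order SKBR3, MDA-MB-453. TYK2 lost its call in 7 of the 12 fits without a single library, FOS without untreated replicate 2 of SKBR3 or, in MDA-MB-453, without untreated replicate 1 or 2 or TWEAK-treated replicate 1 or 3, and SOCS1 without untreated replicate 2 or 3 or TWEAK-treated replicate 1 of MDA-MB-453.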

How the results depend on the processing

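The counts of members past the threshold kept to 5 to 6 higher in SKBR3 and, in MDA-MB-453, to 1 to 2 higher, the 2 being reached without TWEAK-treated replicate 2. In the pathway list, 10 to 17 genes were higher and 3 to 6 lower in SKBR3 over the settings, the 3 without untreated replicate 1 or 3 or TWEAK-treated replicate 1. In MDA-MB-453, 3 to 7 were higher, the 3 without any of the untreated libraries or TWEAK-treated replicate 3, and 1 to 3 lower, the 3 without TWEAK-treated replicate 2. For the difference between lines, the genes of the pathway list with a lower response in MDA-MB-453 numbered 3 to 9 with each library left out, 9 without TWEAK-treated replicate 2 of SKBR3 and 3 without untreated replicate 2 or TWEAK-treated replicate 1 of MDA-MB-453. The sign changed for JAK2 in SKBR3 (-0.0873 to 0.11), STAT3 in MDA-MB-453 (-0.0086 to 0.025) and the difference of SOCS3 between lines (-0.149 to 0.067), each near 0 and never past the threshold. The causes were not tested.

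The replicate numbers were not used as pairs, since the labels do not say what a number stands for and same-numbered libraries did not all correlate above 0.1. Their deviations from the group mean correlated at -0.144 to 0.103 in SKBR3 and 0.0253 to 0.0800 in MDA-MB-453, beside -0.155 to 0.230 and -0.0782 to 0.0045 for libraries with different numbers. In MDA-MB-453 every library thus correlated best with its own number, a hint of pairing from the data. Per the methods of the study, work on cell lines was repeated independently on different days. Neither the methods nor the labels say which replicate number belongs to which day. Whether same-numbered libraries share a day was not tested. With the replicate number as a block, 1211 genes in place of 1633 passed in SKBR3 and 894 in place of 223 in MDA-MB-453, 2 genes of the pathway list were lower in MDA-MB-453, and LIF and CCND1 in SKBR3 and the difference of TYK2 between lines (edgeR adjusted p = 0.124, from 0.0111 to 0.163 over the settings) did not pass. Over all genes in MDA-MB-453, 2101 passed without TWEAK-treated replicate 2, 480 without a filter and 144 in one fit of all 12 libraries. The fewest, 131, passed there without untreated replicate 2 and also without untreated replicate 3. In SKBR3, 2780 passed without TWEAK-treated replicate 2, 2575 in one fit of all 12 libraries and 926 without untreated replicate 2. The differences of the 10 members between the untreated lines kept their direction in all 128 refits. Few counts limit IL6ST in untreated MDA-MB-453, IL27RA in untreated SKBR3, and LIF.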
